A study of Homo sapiens with 12 samples.

Results

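The 38 genes described here belong to the ATF4 and unfolded protein response programme, and were taken as a named list from the 55765 gene symbols counted in each of 12 RNA-seq libraries. All 38 symbols were found in the count files. They comprise 10 stress sensors and transcription factors, 3 feedback genes, 6 enzymes of serine, glycine, one-carbon and asparagine metabolism, 2 chains of an amino acid transporter, 5 aminoacyl-tRNA synthetases, 2 genes for a secreted protein and a surface receptor, 4 genes of endoplasmic reticulum (ER) associated degradation, and 6 ER chaperones and disulfide isomerases. The list was not chosen from a measured value of these libraries, although earlier results of the same data were known.

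The libraries hold total RNA of SH-SY5Y, an established human neuroblastoma cell line derived from the SK-N-SH line, in which all-trans retinoic acid (ATRA) drives neuron-like differentiation. Every culture received ATRA for 7 days, at 10 μM. In the co-treatment experiment 3 treated libraries came from cells given hydrogen peroxide (H2O2) together with ATRA for the whole period, and 3 control libraries from cells given ATRA alone. In the pre-treatment experiment 3 treated libraries came from cells exposed to H2O2 for 72 h ahead of ATRA, and 3 control libraries from cells given ATRA alone. The H2O2 dose is 10 mM in the deposited description and 10 μM in the study's methods, so the dose is not settled here. SH-SY5Y is 1 line, and no source states that the 3 libraries of a group came from separate cultures, so each test measures only the spread between these libraries.

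Cells that face unfolded proteins in the ER signal through 3 membrane sensors. EIF2AK3 (the kinase PERK) phosphorylates eIF2alpha, which lowers general translation and raises translation of ATF4 mRNA, ERN1 (IRE1alpha) splices XBP1 mRNA, and ATF6 is cut to release a transcription factor. ATF4 is also the common output of kinases that sense amino acid shortage, haem deficiency and double-stranded RNA, and it drives genes for amino acid synthesis, uptake and tRNA charging together with DDIT3 (CHOP) and TRIB3. Phosphorylation, splicing of XBP1, cleavage of ATF6 and translation of ATF4 are not seen in counts per gene, so the values below are mRNA levels. In bulk RNA, fewer cells expressing a gene and less RNA per cell cannot be told apart.

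Counted reads on genes ran from 27576276 to 98287391 per library. All 8 neuronal markers listed exceeded a level of 1 CPM (counts scaled by library size) in every library, and 7 of 8 noradrenergic markers did so, with TH (tyrosine hydroxylase) at 0.0104 to 0.263 CPM. The summed levels of 7 glial markers were 3.78 to 6.15 CPM and those of 5 blood and endothelial markers 0.409 to 1.64 CPM. The summed level of 9 mesenchymal markers was 113 to 240 CPM in the co-treatment controls, 218 to 237 CPM in the co-treated libraries, 152 to 286 CPM in the pre-treatment controls and 218 to 302 CPM in the pre-treated libraries. Pre-treatment control 3 stood apart from the other pre-treatment controls. It is absent from a clustering picture of the study, whose methods state no exclusion, and whether the library was set aside or its label is wrong is not settled here. For each read counted on a gene, the reads that fell on no annotated gene numbered 0.800 and 0.830 in pre-treatment controls 1 and 2 and 0.200 in control 3, beside 0.343 to 0.462 in the pre-treated libraries. Small structured RNAs took 1.59% and 2.88% of counted reads in controls 1 and 2, 17.6% in control 3 and 13.3% to 15.1% in the pre-treated libraries. The pre-treatment comparison is therefore given over all 6 libraries and over 5, without control 3, and the part of these library differences in the results was not tested.

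The ER chaperones and ATF4 itself were among the most abundant members. Set per kilobase of the canonical transcript (RPKM, on the scale of the trimmed mean of M-values, TMM), calreticulin (CALR, a lectin chaperone and calcium store of the ER lumen) had the highest mean level over the 12 libraries at 207 RPKM, followed by its membrane-bound relative calnexin (CANX) at 136 RPKM and ATF4 at 110 RPKM. The disulfide isomerases PDIA6 and PDIA4 came next at 83.8 and 83.4 RPKM, an order that their group means do not separate, since PDIA4 was the higher of the pair in co-treated libraries and in pre-treatment controls. The methionyl- and glycyl-tRNA synthetases MARS and GARS reached 78.1 and 76.1 RPKM. The stress sensors were far lower, with ATF6 at 13.0, EIF2AK3 at 6.53 and ERN1 at 3.04 RPKM. The factors CEBPB and ATF3 stood at 1.53 and 2.48 RPKM. STC2 (stanniocalcin 2, a secreted glycoprotein) was near the floor at 0.233 RPKM, with 28 to 157 reads per library. NUPR1, a small stress-induced chromatin-associated protein, was read 0 to 70 times per library and was too low to be tested in the co-treatment experiment. Together the members took 0.394% to 0.477% of the counted reads of a library.

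**Figure D1:**
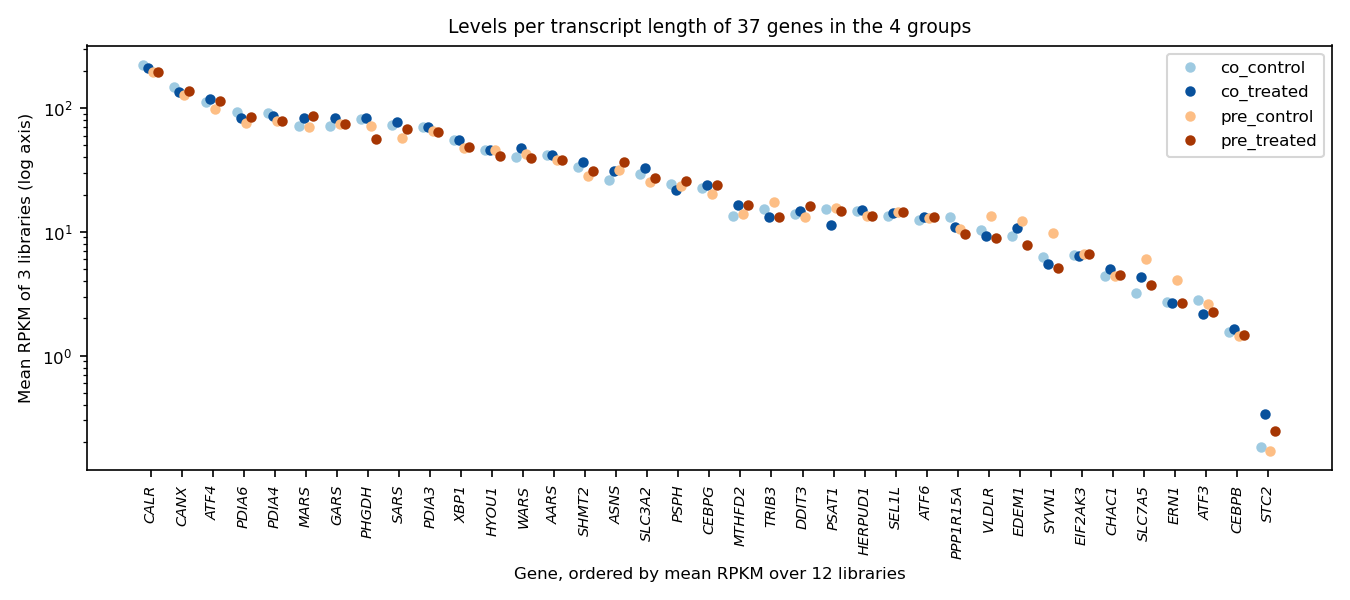
Mean RPKM (log axis) of 37 members in the 4 groups, ordered by the mean over 12 libraries, with NUPR1 left out for its few reads. Each point is the mean of 3 libraries: CALR leads at 207 RPKM over all libraries, STC2 is last at 0.233 RPKM, and for most genes the 4 groups lie close together.

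Short promoter stretches are shown because 12 of the members hold a known response element. Sequence was not used to form the list, but the list names genes of the pathway that these elements serve. The shares below are therefore not independent of how the list was formed. The 250 bases before each RefSeq start (GRCh38.p14) were available for 34 of the 38 members and were read on both strands. The 34 members had 53 starts, beside 35116 starts for 27305 genes, so more bases were read per member than per gene. The C/EBP-ATF response element TGATGNAA, the element bound by ATF4 with C/EBP partners, was present for 7 members (20.6% of 34; ATF3, CEBPG, CHAC1, ASNS, AARS, GARS and HERPUD1), beside 3.89% of 27305 genes. The ER stress element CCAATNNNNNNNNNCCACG, bound by ATF6 with NF-Y, was present for 4 members (11.8%; XBP1, CALR, CANX and PDIA6), beside 0.0916% of genes. The UPR element TGACGTGG was present for 1 member (2.94%; HYOU1), beside 0.780% of genes. The windows below hold 1 match each, with 15 bases on either side, in the direction of the gene, and the capitals mark the match.
CEBPG (chr19:33374056-33374093, plus strand): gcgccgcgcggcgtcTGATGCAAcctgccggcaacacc
ASNS (chr7:97872454-97872491, minus strand): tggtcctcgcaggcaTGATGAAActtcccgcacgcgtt
ATF3 (chr1:212565201-212565238, plus strand): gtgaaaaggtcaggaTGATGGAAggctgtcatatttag
GARS (chr7:30594830-30594867, plus strand): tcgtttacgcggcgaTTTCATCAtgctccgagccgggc
XBP1 (chr22:28800588-28800636, minus strand): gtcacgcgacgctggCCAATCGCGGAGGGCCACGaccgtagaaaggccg
PDIA6 (chr2:10812838-10812886, minus strand): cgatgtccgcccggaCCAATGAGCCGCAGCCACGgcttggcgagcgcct
CALR (chr19:12938369-12938417, plus strand): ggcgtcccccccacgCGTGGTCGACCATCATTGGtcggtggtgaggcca
HYOU1 (chr11:119057371-119057408, minus strand): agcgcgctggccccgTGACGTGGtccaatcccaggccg
In GARS and CALR the element lies on the opposite strand, so its reverse complement is in capitals. A match is a description of these letters and not evidence of binding in these cells. Of the 7 members with the C/EBP-ATF element, CEBPG and ASNS were called in 1 main comparison below, pre-treatment over 5 libraries. That comparison called 17 of 38 members and 26.1% of all genes. ATF3, CHAC1, AARS, GARS and HERPUD1 were called in no main comparison.

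Treatment with H2O2 throughout differentiation left the mRNA levels of most members close to those of the ATRA controls. None of the 37 members tested was called at a false discovery rate (FDR) below 0.05 by edgeR's quasi-likelihood test, beside 0.598% of all genes tested. Before adjustment, 2 members had a p under 0.05, PSAT1 and STC2, beside 8.15% of all genes. No call came from the edgeR exact test, DESeq2 or limma-voom either. They put 2, 2 and 3 members at an unadjusted p under 0.05, beside 8.16%, 8.1% and 8.44% of all genes. The median log2FC of the members was 0.024 (22 above zero and 15 below), beside -0.00095 over all genes. The 95% interval of the fold change lay within 1.5-fold in either direction for 30 of 37 members and within 2-fold for 35. These intervals bound the response more tightly than the missing calls do, and they still leave room for small shifts.

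Among the sensors and transcription factors of the co-treatment experiment, ATF4 was at 132, 163 and 180 CPM in controls and 184, 162 and 155 CPM in treated libraries. The groups overlapped, with a log2FC of 0.08 ± 0.14 (SE, n = 3 per group; FDR = 0.943). DDIT3, the pro-apoptotic partner CHOP, was at 10.4, 13.4 and 14.0 CPM in controls and 10.5, 16.3 and 13.5 CPM in treated libraries. Its log2FC was 0.10 ± 0.19 (FDR = 0.948). DDIT3 (chr12:57910371-57915520) and MARS (chr12:57869228-57911352) overlap on opposite strands over 982 bases in hg19. The strand setting of the counting is not given in the sources used here, so how reads from that stretch were assigned is not known. XBP1 was at 85.5, 93.5 and 119 CPM against 108, 98.0 and 89.1 CPM. Its log2FC was -0.01 ± 0.14 (FDR = 0.996), and its sign turned positive with limma-voom, with upper-quartile or library-size scaling and with the replicate block.

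The 3 ER sensors differed by little after co-treatment. ERN1 was at 26.9, 21.4 and 16 CPM in controls and 21.3, 19.8 and 22.2 CPM in treated libraries, so that every treated value lay inside the control range (log2FC -0.02 ± 0.18, FDR = 0.992). EIF2AK3 was at 28.6, 30.1 and 30.4 CPM against 27.7, 30.3 and 28.6 CPM (log2FC -0.04 ± 0.12, FDR = 0.975). ATF6 was at 90.6, 95.7 and 94.1 CPM against 99.8, 98.7 and 97.7 CPM. The ATF6 groups did not overlap, but the log2FC was only 0.08 ± 0.11 (FDR = 0.920). ATF3, an immediate stress-induced repressor, was at 6.03, 4.50 and 5.93 CPM in controls and 4.02, 4.37 and 4.33 CPM in treated libraries. All 3 treated values were below the controls (log2FC -0.37 ± 0.20, FDR = 0.709). CEBPB and CEBPG, C/EBP partners of ATF4, had a log2FC of 0.07 ± 0.23 and 0.09 ± 0.12.

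After co-treatment the 3 treated libraries all lay above the 3 controls for 8 members, none of them called (ATF6, ASNS, SLC3A2, GARS, WARS, MARS, STC2 and SEL1L), beside 6.57% of all genes tested, and 2 lay below (ATF3 and PSAT1), beside 7.37%. At a mean level of 10 CPM or more, 7 of 33 members lay above, beside 5.16% of 10508 genes, and 1 lay below, beside 8.69%. ASNS, which makes asparagine, was at 61.0, 62.7 and 63.7 CPM in controls and 74.9, 77.7 and 68.1 CPM in treated libraries. Its log2FC was 0.24 ± 0.11 (FDR = 0.641). MTHFD2, a mitochondrial folate enzyme, was at 48.8, 58.1 and 70.1 CPM against 73.1, 78.7 and 66.9 CPM (log2FC 0.31 ± 0.14, FDR = 0.625), with overlapping groups. STC2 was at 0.775, 0.725 and 0.818 CPM against 1.92, 1.11 and 1.26 CPM. That was the largest log2FC of the 37 (0.87 ± 0.34, FDR = 0.479), on 28 to 69 reads per library.

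PSAT1, the aminotransferase of serine synthesis, went the other way from ASNS and MTHFD2. It was at 33.8, 30.1 and 36.5 CPM in co-treatment controls and 29.3, 24.2 and 21.6 CPM in treated libraries, with a log2FC of -0.42 ± 0.14 (FDR = 0.387, the smallest of the members). Its neighbours in the pathway, PHGDH and PSPH, had a log2FC of 0.02 ± 0.14 and -0.17 ± 0.12. PPP1R15A (GADD34), which restores translation by directing a phosphatase to eIF2alpha, was at 31.2, 32.5 and 30.1 CPM against 31.4, 21.6 and 24.1 CPM (log2FC -0.28 ± 0.15, FDR = 0.692). The feedback kinase-like gene TRIB3 and the glutathione-degrading CHAC1, both sensitive ATF4 and CHOP targets, had a log2FC of -0.22 ± 0.13 and 0.20 ± 0.17. The 5 synthetases ran from -0.00025 for AARS to 0.24 for WARS. In the amino acid transporter, the heavy chain SLC3A2 had a log2FC of 0.17 ± 0.12. The light chain SLC7A5 varied from 6.34 to 24.1 CPM among the controls alone, so that its log2FC of 0.44 ± 0.35 carried the widest error of the named targets after co-treatment, and the symbols SLC7A5P1 and SLC7A5P2 held reads equal to 0.546% to 11.1% of its count. The 6 ER chaperones and isomerases had a median log2FC of -0.07, from -0.15 for PDIA6 to 0.02 for HYOU1, and the 4 degradation genes ran from -0.20 for SYVN1 to 0.20 for EDEM1.

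**Figure D2:**
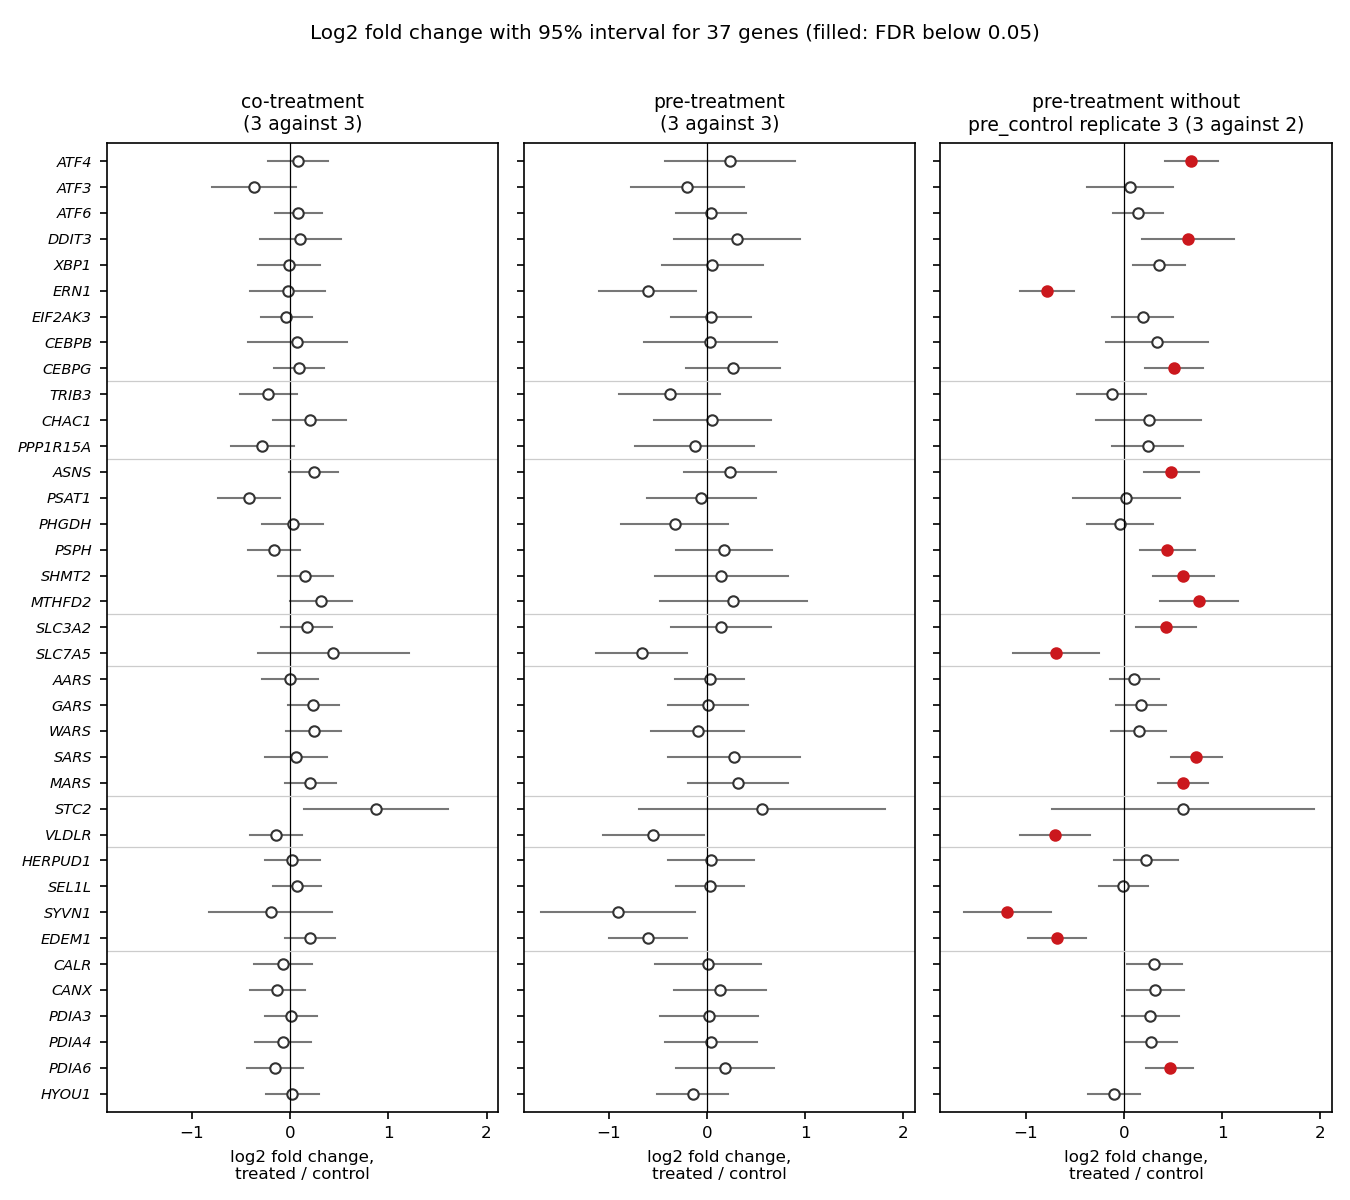
Log2FC of treated over control (x axis) with its 95% interval for 37 members grouped by role, in the co-treatment, the 6-library and the 5-library pre-treatment comparison, with filled points for FDR below 0.05. No point is filled in the co-treatment or 6-library panel, and 16 are filled in the panel without pre-treatment control 3, where NUPR1, also called, is not drawn.

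Pre-treatment with H2O2 gave no call among the members over all 6 libraries. None of 38 passed edgeR's quasi-likelihood test (smallest FDR = 0.320), beside 0.0242% of all genes. Before adjustment 5 had a p under 0.05, beside 11.2% of all genes. The exact test of edgeR, DESeq2 and limma-voom called 0 as well. They put 6, 6 and 5 at an unadjusted p under 0.05, beside 11.4%, 16.6% and 9.88% of all genes. The median log2FC was 0.040, beside -0.0066 over all genes. The intervals were wider than after co-treatment, with 12 of 37 members (NUPR1 left out) held within 1.5-fold and 30 within 2-fold. The spread lay in the controls. The median coefficient of variation of the members was 24.2% in the pre-treatment controls, beside 8.17% in the pre-treated libraries, 7.92% in the co-treatment controls and 9.39% in the co-treated libraries, and over 15790 genes above 1 CPM these medians were 23.0%, 11%, 13.2% and 11.8%.

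The 5 members with an unadjusted p under 0.05 over 6 libraries, beside 11.2% of all genes, were all lower in the pre-treated cells: ERN1, SLC7A5, VLDLR, SYVN1 and EDEM1. The groups of 3 did not overlap for 4 members, all lower (ERN1, SLC7A5, EDEM1 and the ER chaperone HYOU1), beside 8.45% of all genes, and for no member higher, beside 7.97%. At 10 CPM or more, the share of lower genes without overlap was 13.8% of 10508. EDEM1, which passes misfolded glycoproteins to degradation, was at 83.5, 79.0 and 61.8 CPM in controls and 50.9, 51.9 and 41.8 CPM in treated libraries. Every treated value lay under every control, with a log2FC of -0.60 ± 0.17 (FDR = 0.320). SLC7A5 was at 26.6, 31.4 and 25.0 CPM against 13.8, 16.4 and 21.0 CPM, again without overlap (log2FC -0.67 ± 0.20, FDR = 0.320). ERN1 was at 37.7, 37.5 and 22.2 CPM against 20.2, 21.5 and 20.8 CPM. Control 3 sat just above the treated values (log2FC -0.61 ± 0.22, FDR = 0.357).

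Without pre-treatment control 3, calls in the pre-treatment comparison were far more numerous across the transcriptome, from 6 to 6871 genes. Over these 5 libraries 17 of 38 members were called, 12 higher (beside 13.2% of all genes) and 5 lower (beside 12.8%), with 26.1% of all genes called. Genes at a mean of 10 CPM or more were called more often than that, and 16 of 33 members at this level stood beside 40.9% of 10508 genes, with 11 higher beside 25.9% and 5 lower beside 15%. The median log2FC of the members was 0.26, beside 0.011 over all genes. Only NUPR1 and SYVN1 passed an absolute log2FC above 1 as well, beside 11.2% of all genes. The count was 17 with DESeq2 and the exact test of edgeR and 15 with limma-voom and with RLE factors, and the split of calls turned with the scaling. It was 7 higher and 5 lower with upper-quartile factors, which moved the median of all genes to -0.10, and 4 higher and 5 lower with library size alone, which moved it to -0.21. The count also moved with single libraries, as did the share of all genes called. It was 10 without treated replicate 1 and 10 without treated replicate 2, beside 12.5% and 15.5% of all genes. Without treated replicate 3 it was 21, beside 33.1%. Leaving out control 1 or control 2 leaves a lone control, and the median log2FC of the members was then 0.26 and 0.34.

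Among the sensors and factors over these 5 libraries, ATF4 rose. It was at 113 and 97.1 CPM in pre-treatment controls 1 and 2 and 165, 165 and 154 CPM in treated libraries, a log2FC of 0.68 ± 0.12 (FDR = 0.0058). Control 3, at 206 CPM, was above all of them, and over 6 libraries the log2FC was 0.23 ± 0.29 (FDR = 0.778). DDIT3 rose from 10.8 and 8.69 CPM to 16.9, 15.2 and 11.8 CPM (log2FC 0.66 ± 0.21, FDR = 0.047), with control 3 at 16.5 CPM and a log2FC of 0.31 ± 0.28 over 6 libraries (FDR = 0.701). The 5-library call of DDIT3 was lost with limma-voom and under each of the 4 other scalings. CEBPG, the partner whose promoter is shown above, rose from 73.6 and 58.8 CPM to 92.1, 91.9 and 85.1 CPM (log2FC 0.51 ± 0.13, FDR = 0.023). Control 3 was again higher, at 95.3 CPM. ERN1 fell (log2FC -0.78 ± 0.12, FDR = 0.0042). XBP1, whose mRNA it splices, at 68.1 and 73.8 CPM in controls and 91.8, 88.1 and 80.1 CPM in treated libraries, had a log2FC of 0.36 ± 0.12 and was not called (FDR = 0.0501). Control 3 held 112 CPM of XBP1, and the log2FC over 6 libraries was 0.05 ± 0.23 (FDR = 0.939).

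The other sensors and factors stayed uncalled over 5 libraries. ATF6 was at 94.9 and 91.8 CPM in controls 1 and 2, 105 CPM in control 3 and 105, 97.9 and 91.5 CPM in treated libraries, with a log2FC of 0.14 ± 0.11 (FDR = 0.370) over 5 libraries and 0.04 ± 0.16 (FDR = 0.929) over 6. EIF2AK3 was at 29.1, 26.3 and 34.0 CPM in the 3 controls and 32.6, 30.2 and 27.5 CPM in treated libraries, with a log2FC of 0.19 ± 0.14 (FDR = 0.335) and 0.04 ± 0.18 (FDR = 0.943). ATF3 was at 4.46, 4.34 and 6.52 CPM in the controls and 4.28, 4.45 and 4.41 CPM in treated libraries. Its log2FC was 0.06 ± 0.19 (FDR = 0.833) without control 3 and -0.20 ± 0.25 (FDR = 0.779) with it, so that its sign turned on that library. CEBPB had a log2FC of 0.33 ± 0.23. NUPR1 was read 5 and 1 times in controls 1 and 2, 24 times in control 3 and 70, 41 and 26 times in the treated libraries, beside 0 to 4 times in the co-treatment experiment. It was called over 5 libraries (log2FC 3.27 ± 0.71, FDR = 0.013), a fitted value that rests on those few control reads, and had a log2FC of 1.74 ± 0.83 over 6 (FDR = 0.479).

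Metabolic enzymes and synthetases made up 6 of the 12 higher calls over 5 libraries. SARS, the seryl-tRNA synthetase, rose from 87.7 and 76.2 CPM to 131, 126 and 132 CPM (log2FC 0.74 ± 0.11, FDR = 0.0041). MARS rose from 173 and 163 CPM to 246, 231 and 251 CPM (log2FC 0.60 ± 0.11, FDR = 0.0074). Control 3 exceeded every treated library for SARS and for MARS, at 163 and 258 CPM, and the log2FC over 6 libraries was 0.27 ± 0.29 for SARS (FDR = 0.741) and 0.32 ± 0.22 for MARS (FDR = 0.623). AARS, GARS and WARS were not called (log2FC 0.11, 0.17 and 0.15). In serine and one-carbon metabolism MTHFD2 (log2FC 0.77 ± 0.17), SHMT2 (0.61 ± 0.14) and PSPH (0.44 ± 0.12) rose, as did ASNS (0.48 ± 0.12), with FDR values from 0.015 to 0.030. The remaining serine synthesis enzymes PHGDH and PSAT1 had a log2FC of -0.04 ± 0.15 and 0.02 ± 0.24. The feedback genes TRIB3, CHAC1 and PPP1R15A gave no call in any comparison, and over 5 libraries their log2FC was -0.12 ± 0.15, 0.25 ± 0.23 and 0.24 ± 0.16.

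Both chains of the amino acid transporter were called over 5 libraries. SLC3A2 rose from 37.7 and 42.5 CPM to 53.5, 55.0 and 45.7 CPM (log2FC 0.43 ± 0.13, FDR = 0.045), with control 3 at 61.6 CPM, but the call was lost with limma-voom and under each of the 4 other scalings. SLC7A5 fell (log2FC -0.69 ± 0.19, FDR = 0.031), and here control 3, at 25.0 CPM, lay with the other controls. VLDLR, a lipoprotein and reelin receptor reported as an ATF4 target, fell from 141 and 141 CPM to 92.3, 90.5 and 65.7 CPM (log2FC -0.70 ± 0.15, FDR = 0.014). Its level in control 3, 89.5 CPM, was that of the treated libraries. STC2 was at 0.598 and 0.854 CPM in controls 1 and 2 and 0.642, 0.529 and 1.97 CPM in treated libraries, so that treated replicate 3 alone was high and no call resulted (log2FC 0.60 ± 0.59, FDR = 0.472).

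In the ER, 2 of the 4 degradation genes fell over 5 libraries and 1 of the 6 folding genes rose. SYVN1 (HRD1), the ubiquitin ligase of ER-associated degradation, fell from 29.2 and 44.4 CPM to 14.0, 14.8 and 17.3 CPM (log2FC -1.19 ± 0.19, FDR = 0.0048). Control 3, at 14.9 CPM, lay among the treated libraries, and in the co-treatment experiment SYVN1 ran from 11.1 to 30.8 CPM within the controls. EDEM1 fell too (log2FC -0.68 ± 0.13, FDR = 0.0078). The SYVN1 partners SEL1L and HERPUD1 had a log2FC of -0.01 ± 0.11 and 0.23 ± 0.14. Of the folding genes PDIA6 alone rose, from 148 and 145 CPM to 190, 192 and 196 CPM (log2FC 0.47 ± 0.10, FDR = 0.015), with control 3 at 224 CPM. CALR, CANX, PDIA3 and PDIA4 had a log2FC between 0.27 and 0.32 with FDR values from 0.095 to 0.145, and HYOU1 one of -0.10 ± 0.12. With the replicate block, which pairs libraries by number, all 4 of these, XBP1 and HERPUD1 were called as well, for 23 calls in all beside 40.8% of all genes, although the numbers were not found to pair the libraries.

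**Figure D3:**
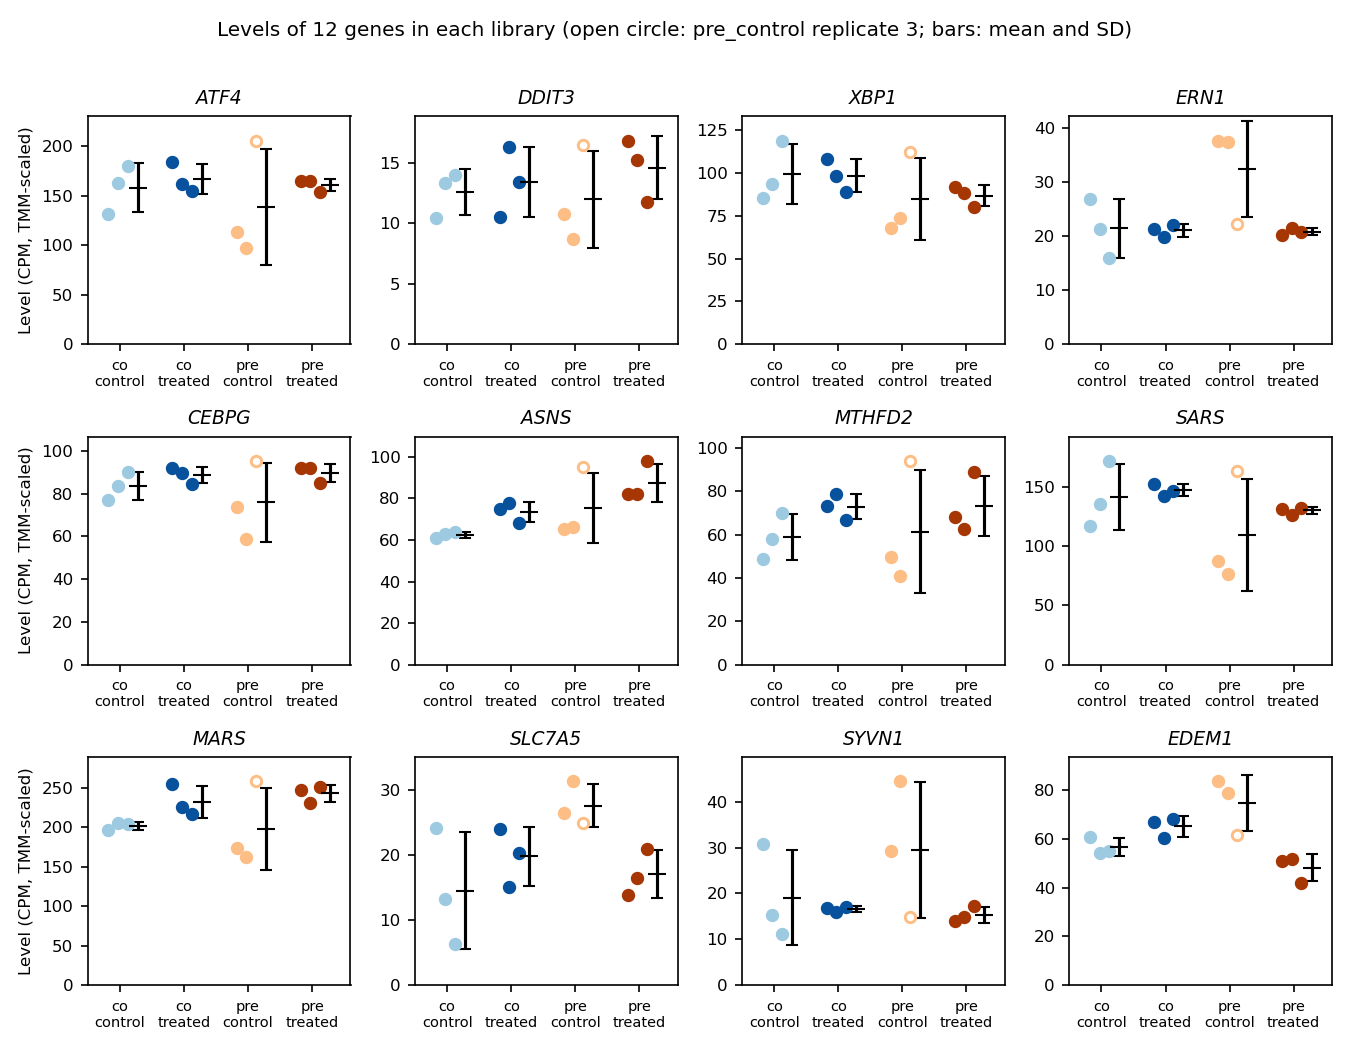
Levels of 12 members (y axis, CPM on the TMM scale) in the 12 libraries by group, with the mean and SD of 3 libraries beside the points and an open circle for pre-treatment control 3. For ATF4, that library is at 206 CPM beside 113 and 97.1 CPM in controls 1 and 2, and for EDEM1 all 3 treated libraries lie under all 3 controls.

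Including pre-treatment control 3 ended all 17 calls, while the sign of the log2FC of these members was the same over 5 and over 6 libraries. Those 5 libraries are part of the 6, so the shared sign is not separate support for the calls. For all 12 members called higher over 5 libraries the level in control 3 was nearer to the mean of the treated libraries than to that of controls 1 and 2. For 9 of them it lay beyond the highest treated library. Set against control 3 alone, the treated mean kept its direction for 1 of these 12 (NUPR1). For the 5 members called lower, it kept its direction for 4 (ERN1, SLC7A5, VLDLR and EDEM1), with log2 ratios of -0.09, -0.55, -0.11 and -0.36, and turned slightly positive for SYVN1 (0.05). Over all 6871 genes called in these libraries control 3 was nearer to the treated mean for 87.8%, and the treated mean kept its direction against control 3 for 39.2%. Controls 1 and 2 were the lowest 2 of all 12 libraries for 7 of the 12 members called higher, ATF4 among them, beside 68.6% of all genes called higher. They were the highest 2 for 4 of the 5 called lower, beside 78.8% of all genes called lower. The calls compare the treated libraries with controls 1 and 2, so part of this order is fixed by the choice of genes. Over all 38 members, called or not, the pair was the lowest 2 for 14 (36.8%) and the highest 2 for 4 (10.5%). The same shares over all genes tested are not given here, so these values cannot be read as a trait of the members.

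A fit of the 3 treated libraries against control 3 alone (lone control, with the spread taken from the treated libraries) gave a median log2FC of -0.23 over the members, with 4 of 38 above zero, beside 0.090 over all genes. It called 0 members, beside 0.0204% of all genes, and put 10 members at an unadjusted p under 0.05, beside 15.5% of all genes. In that fit ATF4 had a log2FC of -0.36, XBP1 -0.38 and DDIT3 -0.18.

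**Figure D4:**
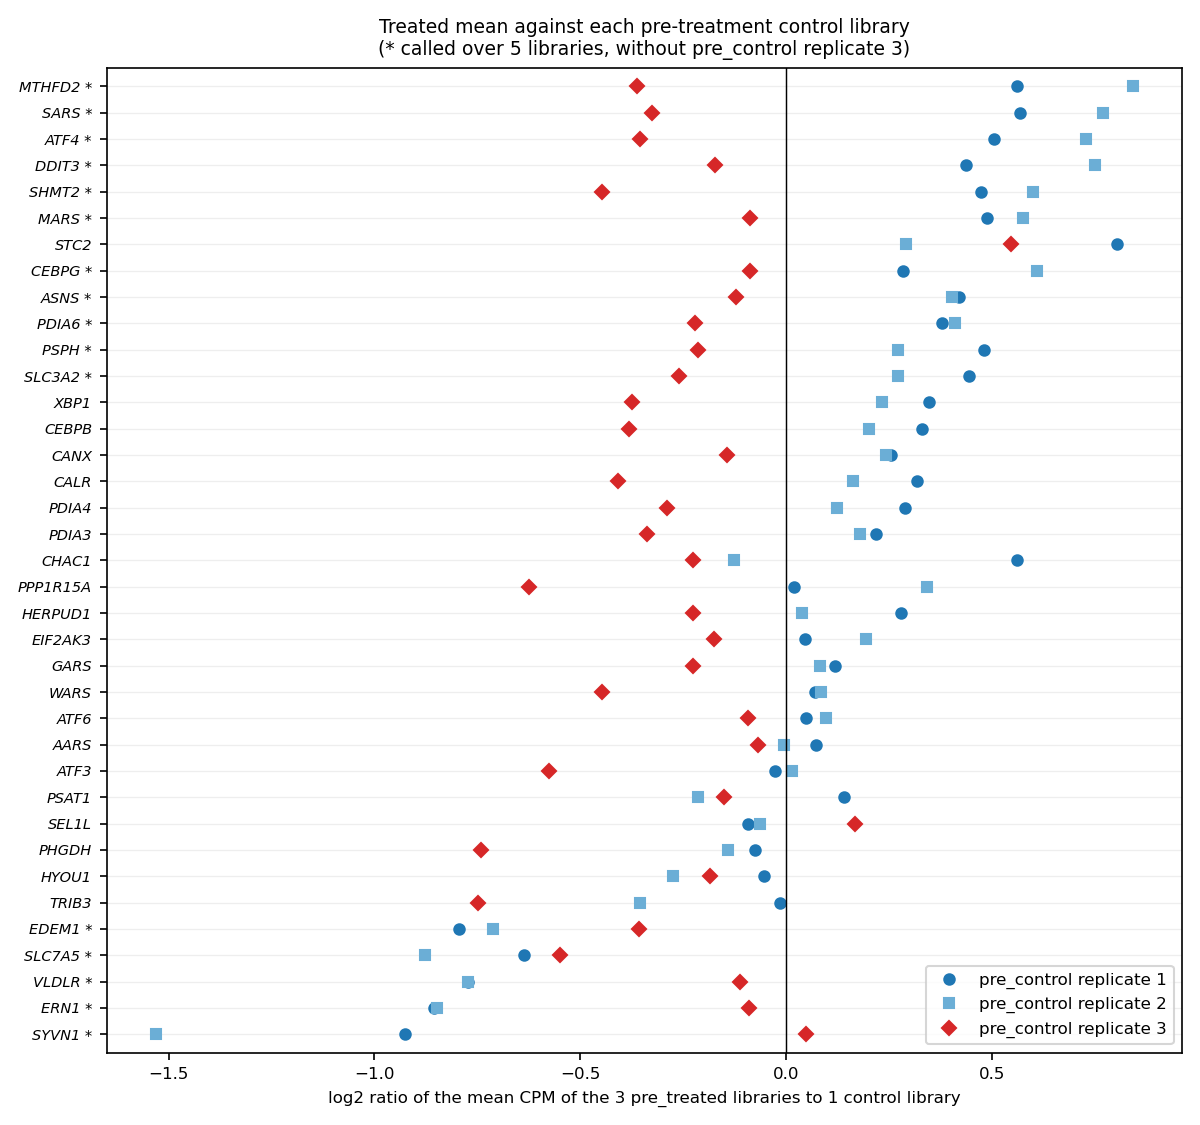
Log2 ratio of the mean CPM of the 3 pre-treated libraries to each single pre-treatment control library (x axis) for 37 members, with an asterisk for members called over 5 libraries and NUPR1 left out. Controls 1 and 2 (blue) and control 3 (red) fall on opposite sides of zero for ATF4 (0.51, 0.73 and -0.35), and on the same side for EDEM1 (-0.79, -0.71 and -0.36) and SLC7A5 (-0.64, -0.88 and -0.55).

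Whether the response to H2O2 differed between the experiments was tested as an interaction over the 12 libraries. None of the 38 members was called by edgeR's quasi-likelihood test, beside 0.0287% of all genes. EDEM1 and SLC7A5, 2 of 38, had an unadjusted p under 0.05, beside 8.94% of all genes. EDEM1 had a log2FC of 0.20 ± 0.12 after co-treatment and -0.60 ± 0.17 after pre-treatment, and the difference was -0.83 ± 0.20 (FDR = 0.378). For SLC7A5 the difference was -1.14 ± 0.50 (FDR = 0.549), and for ATF4 it was 0.14 ± 0.33 (FDR = 0.921). DESeq2 called EDEM1, beside 0.443% of all genes. With limma-voom 0 were called and 2 had an unadjusted p under 0.05, beside 6.94% of all genes. Without pre-treatment control 3, edgeR called EDEM1 (-0.94 ± 0.17, FDR = 0.0095) and ERN1 (-0.81 ± 0.23, FDR = 0.047), 2 of 38 members beside 8.02% of all genes, while the difference for ATF4 was 0.55 ± 0.19 (FDR = 0.087). Side by side, 17 of 37 members were above zero and 7 below zero in both experiments over 6 libraries each, and 13 differed in sign.

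Other genes of the pathway were listed from general knowledge of it. Of 42 further genes of the ATF4 arm, 38 were tested after co-treatment. The only call was GDF15, a secreted stress cytokine, which rose, beside 0.598% of all genes called. It was at 13.4, 13.0 and 10.3 CPM in controls and 26.4, 17.9 and 28.9 CPM in treated libraries (log2FC 0.99 ± 0.19, FDR = 0.037), while its log2FC after pre-treatment was -0.29 ± 0.28 over 6 libraries (FDR = 0.718). The difference between the experiments was -1.31 ± 0.36 and was not called (FDR = 0.407). The GDF15 call was not examined under the alternative methods, scalings or left-out libraries. None of 39 tested was called after pre-treatment over 6 libraries, with 8 at an unadjusted p under 0.05, beside 11.2% of all genes. Over 5 libraries 11 of 39 were higher and 2 lower, beside 13.2% and 12.8% of all genes and 25.9% and 15% of those at 10 CPM or more. The higher ones included the synthetases NARS (0.98 ± 0.15), LARS (0.75 ± 0.16), TARS (0.73 ± 0.14), IARS (0.54 ± 0.14) and EPRS (0.52 ± 0.13). The proline synthesis enzyme PYCR1 (0.67 ± 0.11) was higher too. For each of these genes control 3 lay above controls 1 and 2. It was below every treated library for NARS and EPRS, and above every treated library for PYCR1, at 105 CPM. The listed synthetases YARS (FDR = 0.147), CARS (FDR = 0.054) and VARS (FDR = 0.086) were not called. The cationic amino acid transporter SLC7A1 fell (log2FC -1.46 ± 0.19), from 166 and 183 CPM in controls 1 and 2 to 48.5, 55.4 and 78.1 CPM, with 66.5 CPM in control 3.

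Of 44 further ER stress genes found in the files, 42 were tested. After co-treatment edgeR's quasi-likelihood test called none, with 2 at an unadjusted p under 0.05, beside 8.15% of all genes. It called none after pre-treatment over 6 libraries, with 3 at an unadjusted p under 0.05, beside 11.2% of all genes. HSPA5 (BiP), the main ER chaperone and a standard readout of the unfolded protein response, was at 214, 105 and 170 CPM in co-treatment controls and 116, 101 and 92.7 CPM in treated libraries (log2FC -0.66 ± 0.21, FDR = 0.336). After pre-treatment it was at 146, 229 and 91.9 CPM in controls and 93.0, 92.8 and 108 CPM in treated libraries (log2FC -0.63 ± 0.29, FDR = 0.470), and it fell over 5 libraries (-0.87 ± 0.18, FDR = 0.011). Over 5 libraries 8 of the 42 were higher and 8 lower, beside 13.2% and 12.8% of all genes and 25.9% and 15% of those at 10 CPM or more. DNAJB9, a cochaperone of HSPA5 and target of spliced XBP1, rose from 24.2 and 19.8 CPM to 43.0, 42.6 and 39.3 CPM (0.99 ± 0.14, FDR = 0.0032), with 40.5 CPM in control 3. CREB3L2, an ER-anchored transcription factor, had the largest decrease of the list (log2FC -1.99 ± 0.15, FDR = 0.00082), from 154 and 169 CPM to 31.2, 39.7 and 45.1 CPM, with 33.3 CPM in control 3 and 35.8 to 64.3 CPM in the co-treatment libraries.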

How the data were processed

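Total RNA was depleted of ribosomal RNA and sequenced from stranded libraries. Per the labels and the study's methods, the authors checked reads with FastQC 0.11.8, trimmed them with cutadapt 2.10, mapped them to hg19 with HISAT2 2.1.0 and made the deposited raw counts per gene symbol with HTSeq 0.7.2. The annotation version and strand setting are not given in the sources used here. The 5 closing entries of each count file name no gene and were left out of library sizes. Reads outside genes numbered 0.200 to 0.830 per counted read. The authors' own tables of fold changes, p-values and FDR values for their comparisons were not used.

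Groups follow the sample titles. Testing used edgeR 4.0.16 under R 4.3.3 (TMM, quasi-likelihood test, two-sided, Benjamini-Hochberg over all genes tested, called at FDR below 0.05). A gene was tested where enough libraries, namely the size of the smaller group, had a CPM no lower than 5 reads give in the library of least depth. Errors of log2FC are standard errors of the fit. CPM levels share 1 TMM scale over 12 libraries, and RPKM divides them by the canonical transcript of GENCODE v44 lifted to hg19, in which all 38 members matched (5 by older symbol). Promoters come from RefSeq (GRCh38.p14). Code was tested on simulated data. DESeq2 1.42.0, limma 3.58.1, other scalings and filters, a replicate block and leaving out libraries were tried as alternatives.

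The members, the gene lists and the alternatives were chosen with earlier results of these data known. Members given in every library were the 7 sensors and core factors, those called over all libraries of a comparison, and the 3 with the smallest p in each direction in each comparison of treated with control. SLC3A2, VLDLR and PDIA6, the 12 genes of the plot by library and the further pathway genes given in every library (GDF15, SLC7A1, HSPA5, DNAJB9 and CREB3L2) were added after their values were seen. Replicates of a group differed by more than counting noise (chi-square over its degrees of freedom, 24.8 to 545). The replicate numbers were not found to pair libraries. Deviations of same-numbered libraries correlated at -0.073 to -0.063 after co-treatment and -0.28 to 0.030 after pre-treatment. With 3 libraries per group, these values cannot exclude a pairing.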

Additional observations from a re-analysis of the deposited data

How the results depend on the processing

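No member was called after co-treatment, or after pre-treatment over 6 libraries, under any alternative run, except that the latter count ran from 0 to 17 when 1 library was left out, with 17 only without pre-treatment control 3. Over 5 libraries the count was 2 with an absolute log2FC above 1, 9 with library size alone and 23 with the replicate block. It was 10 to 21 when 1 treated library was left out, beside 12.5% to 33.1% of all genes. The interaction count was 1 with DESeq2, 2 over 11 libraries and 0 to 2 when 1 library was left out. The replicate block changed no other call among the members, and gave 0 calls for co-treatment, for pre-treatment over 6 libraries and for the interaction.

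Signs near zero turned. After co-treatment, log2FC became positive for XBP1 (0.00080 with limma-voom, 0.016 with upper-quartile factors, 0.047 with library size alone, 0.00054 with the replicate block), ERN1 (0.0036, 0.016 and 0.0082 with the last 3) and EIF2AK3 (0.010 with library size alone). Leaving out 1 library gave -0.037 to 0.18 for ATF4, -0.066 to 0.24 for DDIT3, -0.11 to 0.14 for XBP1 and -0.19 to 0.17 for ERN1. After pre-treatment over 6 libraries, library size alone gave -0.014 for ATF6 and -0.0090 for EIF2AK3, and without controls 1 and 2 the values were -0.36 (ATF4), -0.099 (ATF6), -0.18 (DDIT3), -0.38 (XBP1), -0.18 (EIF2AK3), -0.095 (MARS) and -0.095 (CEBPG). Leaving out 1 library gave -0.32 to 0.064 for ATF3, -0.013 to 0.14 for ATF6, -0.091 to 0.36 for XBP1 and -0.058 to 0.19 for EIF2AK3. The cause was not tested. Few reads limit the values of NUPR1 and STC2.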
